A study of Mus musculus with 8 samples.

Results

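The mitochondrial ribosomal protein genes were taken as every gene whose symbol was Mrps or Mrpl followed by a number and at most 1 letter. This gave 74 genes of the 23972 gene symbols listed for the 2 cell lines, of which 73 had a row for wild-type ASZ, 74 a row for RasV12 and 73 a row for both under the same name. The samples were 8 RNA-seq libraries of ASZ cells, a mouse basal cell carcinoma cell line, with 2 libraries in each of 4 groups. Cells of wild-type genotype were given DMSO, the vehicle, or CBD. Cells of genotype RasV12, which carry a constantly active variant of the signalling protein Ras, were given the same 2 agents. The labels do not spell out CBD, give no dose or time of exposure, and do not say which Ras gene was used, how it was driven or whether the line is 1 clone. The title of the series places the comparison in a study of primary cilia, Hedgehog signalling and Ras/MAPK signalling.

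Mitochondria carry their own ribosome, which translates the few messages of the mitochondrial genome, all of them encoding core subunits of oxidative phosphorylation. Its RNAs are transcribed in the mitochondrion, but all of its proteins are encoded in the nucleus, made in the cytosol and imported. The small subunit reads the message and the large subunit joins the amino acids. Many of the proteins have bacterial counterparts, while others were added in mitochondria.

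The deposited tables held 1 FPKM value (fragments per kilobase of transcript, scaled to the depth of sequencing) for each group, over its 2 libraries, and, for each line, a p-value from the authors that compares CBD with DMSO. No value per library was analysed here, so spread between libraries enters only through those p-values, and the labels do not say whether the libraries were separate cultures. Each log2 ratio of CBD over DMSO is followed by a standard error derived from that p-value. A gene was called higher or lower where that p-value, after Benjamini-Hochberg adjustment over all genes used in the table, was under 0.05. Depth estimated from the steps between low FPKM values was 11.1 to 16.6 M fragments per library (M, mega), a figure that unequal scaling would shift. All 7 keratinocyte markers stood at 1 FPKM or more in every group, with sums of 13093 to 16961 FPKM, and no fibroblast marker of 7 reached 1 FPKM. Cd68 was the 1 immune marker of 5 at that level, and Pecam1 the 1 endothelial marker of 3. Of 4 melanocyte markers, Tyr reached 4.11 FPKM in ASZ with CBD and Pmel 1.14 in RasV12 with CBD. With CBD the keratinocyte markers moved both ways: Krt17 and Perp were called higher and Krt15 and Trp63 lower in ASZ, and Cdh1 was called higher and Krt15 and Trp63 lower in RasV12. Krt5 and Krt14 were called in neither line, and the part of these markers in the members' values was not tested. In RNA from whole cultures, fewer cells of a kind and less RNA per cell cannot be told apart.

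Promoters of several members carry letters of factors known as regulators of nuclear genes for mitochondria: NRF1, the ETS family (which includes GABP) and YY1. A RefSeq promoter on GRCm38.p6, from 250 bases before to 50 after the transcript start, was matched to 65 of the 74 members. On either strand, the NRF1 letters, GCGC and TGCGC with any 1 base between them, were found in 13 of these promoters (20%) against 12.4% of the promoters of 8903 genes used. The ETS letters CCGGAAG were found in 23 (35.4% against 21.6%) and the YY1 letters AAGATGGC in 12 (18.5% against 5.59%). At least 1 of the 3 was found in 40 members, or 61.5% against 34.6%. The windows printed here run from 150 bases before to 30 after the start, 5′ to 3′ on the strand of the gene, with these letters in capitals. Mrps26 and Mrpl45 are shown for their repeated NRF1 letters, and Mrps18a for ETS letters followed by YY1 letters. Mrpl44 and Mrpl50 are shown because their CBD values, given further on, in ASZ were among the lowest ratios of the set. The coordinates belong to GRCm38.p6 and not to mm9, the build of the expression tables.
Mrps26 (chr2:130563607-130563786, plus strand): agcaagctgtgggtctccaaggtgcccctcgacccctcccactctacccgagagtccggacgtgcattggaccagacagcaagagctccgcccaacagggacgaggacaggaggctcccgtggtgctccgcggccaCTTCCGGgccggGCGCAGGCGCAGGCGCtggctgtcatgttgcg
Mrpl45 (chr11:97315566-97315745, plus strand): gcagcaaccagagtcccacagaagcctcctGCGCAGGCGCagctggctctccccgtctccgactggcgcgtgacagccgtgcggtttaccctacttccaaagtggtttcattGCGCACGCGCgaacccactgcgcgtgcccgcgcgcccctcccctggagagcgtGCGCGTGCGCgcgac
Mrps18a (chr17:46110854-46111033, plus strand): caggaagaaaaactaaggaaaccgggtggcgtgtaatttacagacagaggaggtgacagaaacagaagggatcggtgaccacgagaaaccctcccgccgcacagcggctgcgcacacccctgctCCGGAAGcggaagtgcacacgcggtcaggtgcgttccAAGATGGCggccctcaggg
Mrpl44 (chr1:79775868-79776047, plus strand): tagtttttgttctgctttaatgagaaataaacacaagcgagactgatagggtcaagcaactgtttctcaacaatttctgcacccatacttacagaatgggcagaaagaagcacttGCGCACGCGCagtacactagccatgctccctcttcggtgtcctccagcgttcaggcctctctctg
Mrpl50 (chr4:49521054-49521233, minus strand): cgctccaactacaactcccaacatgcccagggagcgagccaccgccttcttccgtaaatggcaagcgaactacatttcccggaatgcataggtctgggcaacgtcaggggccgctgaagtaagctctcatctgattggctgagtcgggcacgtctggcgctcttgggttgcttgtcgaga
In Mrps26 2 NRF1 matches overlap, next to ETS letters, with both kinds read on the strand opposite to the gene, and Mrpl45 has 3 separate NRF1 matches. Mrpl44 has 1, and Mrpl50 has none of the 3 in this window or in the longer one. Members with the NRF1 letters had a median log2 ratio of CBD over DMSO of 0.56 in ASZ and 0.72 in RasV12, against 0.34 and 0.37 for members without them. For the ETS letters the medians were 0.34 with and 0.39 without in ASZ, and 0.33 and 0.49 in RasV12. For the YY1 letters they were 0.38 with and 0.38 without in ASZ, and 0.58 and 0.40 in RasV12. These medians were not tested. CCAAT, at 40% of members and 43.7% of genes, and TATAAA, at 7.69% and 8.46%, were found at near the share of other promoters.

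Every member was expressed above 1 FPKM in all 4 groups, and their levels under DMSO spanned 26.5-fold in ASZ and 25-fold in RasV12. In ASZ with DMSO the median member stood at 32.6 FPKM, against 10.8 for all genes used. In RasV12 with DMSO the 2 medians were 36.2 and 11.6 FPKM. Mrpl12, a protein of the flexible stalk that meets translation factors, was the highest member under DMSO in both lines, at 178 FPKM in ASZ and 184 in RasV12. Mrps21, Mrpl33, Mrps7 and Mrpl42 followed it in ASZ, at 136, 129, 127 and 106 FPKM. The lowest levels in ASZ with DMSO were 6.72 FPKM for Mrpl17, 6.81 for Mrpl41, 7.40 for Mrpl35, 8.59 for Mrpl1 and 9.43 for Mrps22. With CBD Mrps21 rose to 210 FPKM in ASZ and Mrpl42 to 153, while Mrps7, at 169, was not called. In RasV12 Mrps21 had 137 FPKM with DMSO and 172 with CBD, Mrps7 had 119 and 156, and Mrpl42 rose from 80.2 to 156. Of the low members, Mrpl17 had 6.76 FPKM with CBD in ASZ, Mrpl35 had 10.6 and Mrpl1 had 8.96. In RasV12 Mrpl17 had 7.88 and 8.39 FPKM, Mrpl35 had 7.37 and 11.4, and Mrpl1 had 11.6 and 11.8, and none of these 3 was called in either line. Proteins of 1 ribosome, most of them present in it as single copies, thus had widely different message levels. Together the members made up 0.818% of the FPKM sum in ASZ with DMSO, 0.805% with CBD, 0.764% in RasV12 with DMSO and 0.713% with CBD.

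**Figure D1:**
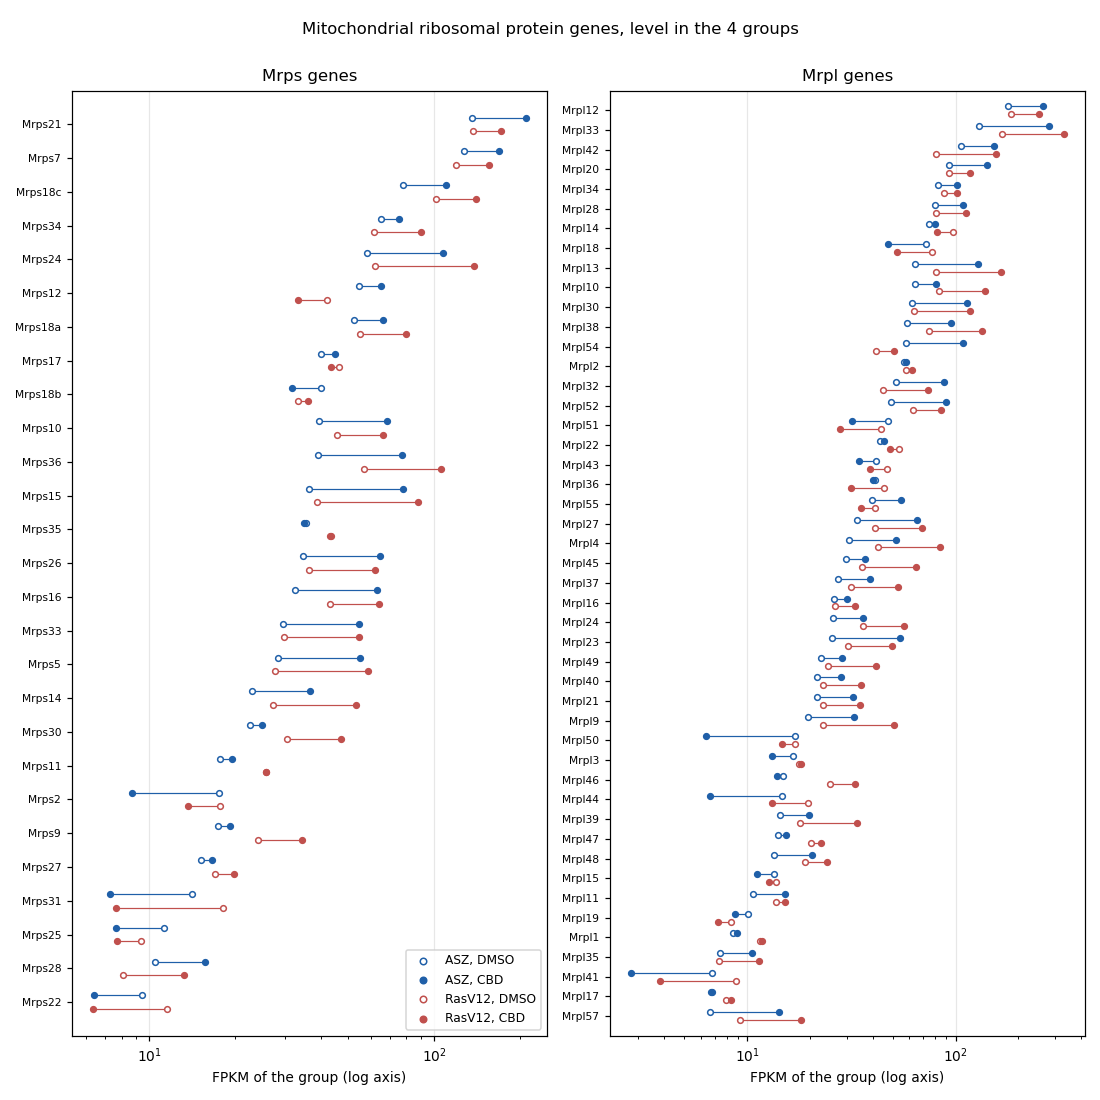
FPKM of each member in the 4 groups on a log axis, Mrps genes on the left and Mrpl genes on the right, ordered by level in ASZ with DMSO. Open circles are DMSO and filled circles CBD, blue for ASZ and red for RasV12, with 1 value per group; Mrpl57 is listed under an older symbol in the ASZ table. Mrpl12 leads under DMSO at 178 and 184 FPKM, and most lines run to the right.

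The order of the members was nearly the same in both lines under DMSO. Across the 73 members in both tables, log2 FPKM of the lines correlated at Pearson r = 0.97 and Spearman rho = 0.97, a description across genes that are not independent replicates. The tables were normalised separately, so levels across them were set against the median gene of each table. On that scale the median member differed between the lines by -0.01 log2 units under DMSO, RasV12 minus ASZ, from -0.63 for Mrpl54 to 0.55 for Mrpl46. For all genes the median was -0.02, and 35 of the 73 members were higher in RasV12. With CBD the same measure had a median of -0.47 for the members and -0.15 for all genes, with 10 of 73 higher in RasV12. The reference itself moved with CBD, as the median log2 ratio of all genes was -0.44 in ASZ and -0.01 in RasV12. As deposited, the median member with CBD stood at 40.0 FPKM in ASZ and 48.8 in RasV12. The sign of the difference between the lines with CBD thus depended on the reference.

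With CBD, more members rose than fell in both lines, on the scale of the deposited values. In ASZ 24 of 73 members were called higher and 8 lower, against 14% of all 10696 genes called higher and 42.4% called lower. In RasV12 21 of 74 were called higher and 2 lower, against 18.7% and 24.4% of 11070 genes. The median change of the members on the log2(FPKM + 1) scale was 0.36 in ASZ and 0.44 in RasV12, and that of all genes -0.37 and -0.01. The FPKM was higher with CBD for 56 of 73 members in ASZ and 54 of 74 in RasV12. The higher calls depended on how the groups were scaled and stood near those of other genes with short transcripts, as given further on.

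Of the 73 members in both tables, 16 rose in both lines and 2 fell in both, or 21.9% and 2.74%, against 9.65% and 23.3% of the 10399 genes in both tables. No member was called in opposite directions, as were 0.837% of those genes. In ASZ alone 8 were called higher (Mrpl12, Mrpl20, Mrpl23, Mrpl52, Mrpl54, Mrps10, Mrps16 and Mrps21) and 6 lower, and in RasV12 alone 4 were called higher (Mrpl10, Mrpl37, Mrpl39 and Mrpl45). These splits are not differences between the lines, which were tested separately. The other 37 were called in neither line. Mrpl57, which the ASZ table lists under its older symbol Mrp63, had 6.67 FPKM with DMSO and 14.3 with CBD there and 9.26 and 18.2 FPKM in RasV12, with adjusted p = 9.8e-05 and 0.011 from the authors' test.

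Among small subunit proteins with a bacterial counterpart, 7 of 16 were called higher and 1 lower in ASZ, or 43.8% and 6.25% against 14% and 42.4% of all genes. In RasV12 4 were called higher and 0 lower, or 25% and 0% against 18.7% and 24.4%. These genes are short, with a median transcript of 1094 nt. Of all genes in the shortest 2 of 10 length bins, 35.9% were called higher and 10.2% lower in ASZ, and 28.1% and 6.7% in RasV12. Mrps15, counterpart of bacterial S15, stood at 36.6 FPKM with DMSO and 77.7 with CBD in ASZ, and at 38.9 and 87.8 in RasV12. Its log2 ratio was 1.09 ± 0.24 in ASZ and 1.17 in RasV12, with a standard error of at most 0.29 since the p-value from the authors was the lowest in the table. The ratio of Mrps15 was among the highest of the members in both lines. Mrps24, counterpart of S3 at the entry of the message, went from 58.1 to 108 FPKM in ASZ and from 62.1 to 138 in RasV12. The ratios of Mrps24 were 0.89 ± 0.23 and 1.16, the latter again with a standard error of at most 0.29. Mrps5, counterpart of S5, had 28.4 and 54.9 FPKM in ASZ and 27.7 and 58.6 in RasV12, with ratios of 0.95 ± 0.24 and 1.08 ± 0.31. All 3 of these genes rose in both lines, as did Mrps14, from 23.0 to 36.8 FPKM in ASZ and from 27.2 to 53.2 in RasV12.

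Mrps16, counterpart of S16, was called in ASZ only, at 32.6 FPKM with DMSO and 63.3 with CBD. In RasV12 it stood at 43.2 and 64.2 FPKM (adjusted p = 0.14, from the authors' p-value). Mrps12, counterpart of S12 at the decoding centre, was called in neither line, with 54.4 and 65.0 FPKM in ASZ and 42.0 and 33.4 in RasV12. Mrps2, counterpart of S2, was the 1 gene of this class called lower. It went from 17.6 to 8.69 FPKM in ASZ (log2 ratio -1.02 ± 0.27), and stood at 17.8 and 13.7 FPKM in RasV12 (-0.38 ± 0.32, where the authors' p-value adjusted to p = 0.34).

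The small subunit proteins specific to mitochondria had 2 of 8 called higher and 2 lower in ASZ, or 25% each against 14% and 42.4% of all genes. In RasV12 2 were called higher and 1 lower, or 25% and 12.5% against 18.7% and 24.4%. Mrps26 rose from 34.7 to 64.7 FPKM in ASZ and from 36.3 to 61.9 in RasV12, and Mrps33 from 29.6 to 54.5 and from 29.7 to 54.4. Mrps31 fell in both lines, from 14.1 to 7.27 FPKM in ASZ and from 18.2 to 7.64 in RasV12. Its log2 ratios were -0.96 ± 0.30 and -1.26 ± 0.37, with adjusted p = 0.0029 and 0.0027 from the authors' test. Mrps25 fell in ASZ, from 11.3 to 7.65 FPKM, and stood at 9.38 and 7.73 in RasV12, where the authors' test gave adjusted p = 0.51. Mrps22 had 9.43 and 6.40 FPKM in ASZ and 11.5 and 6.38 in RasV12, and passed the authors' test after adjustment in neither (adjusted p = 0.13 and 0.072 from the authors' p-values).

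Large subunit proteins with a bacterial counterpart gave 10 higher and 1 lower call of 30 in ASZ, or 33.3% and 3.33% against 14% and 42.4% of all genes. RasV12 gave 8 and 0, or 26.7% and 0% against 18.7% and 24.4%. Mrpl33, counterpart of L33, had the largest ratio of all members in ASZ, from 129 to 280 FPKM, or 1.12 ± 0.23 (adjusted p = 7.7e-06, from the authors' test). In RasV12 it went from 167 to 329 FPKM, or 0.98 ± 0.27, and was the most abundant member with CBD in both lines. Mrpl13, counterpart of L13, rose from 63.9 to 129 FPKM in ASZ and from 80.1 to 165 in RasV12. Mrpl4, whose bacterial counterpart lines the exit tunnel of the new chain, rose from 30.7 to 52.0 FPKM and from 42.2 to 84.5. Mrpl9 rose from 19.5 to 32.5 FPKM in ASZ and from 23.0 to 50.7 in RasV12, where its ratio was 1.14 ± 0.30.

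Mrpl23, whose bacterial counterpart lies at the mouth of the exit tunnel, rose in ASZ from 25.5 to 54.3 FPKM, with a ratio of 1.09 ± 0.28. In RasV12 it stood at 30.5 and 49.3 FPKM (0.70 ± 0.35, adjusted p = 0.091 by the authors' test). Mrpl12 rose in ASZ, from 178 to 262 FPKM, and had 184 and 251 in RasV12 (adjusted p = 0.16 by the authors' test). Mrpl10, at the base of the same stalk, showed the other pattern of calls, with 63.7 and 80.2 FPKM in ASZ (adjusted p = 0.20 by the authors' test) and a rise from 82.9 to 139 in RasV12. Mrpl18, of the central protuberance, fell in ASZ from 72.0 to 47.4 FPKM and stood at 77.2 and 52.6 in RasV12 (adjusted p = 0.11 by the authors' test). Its ratios were close to each other, at -0.60 ± 0.24 and -0.55 ± 0.29.

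Large subunit proteins specific to mitochondria gave 4 higher and 4 lower calls of 17 in ASZ, or 23.5% each against 14% and 42.4% of all genes. Their median transcript was 1424 nt. Of all genes in the shortest 2 of 10 length bins, 35.9% were called higher and 10.2% lower in ASZ. The share of lower calls was thus below that of all genes but above that of short genes. In RasV12 the class had 5 higher and 1 lower call, or 29.4% and 5.88% against 18.7% and 24.4% of all genes. Mrpl50 fell in ASZ from 17.0 to 6.35 FPKM, the lowest ratio of any member there, -1.42 ± 0.28. In RasV12 it had 16.9 and 14.7 FPKM, or -0.20 ± 0.31, for which the authors' p-value adjusted to p = 0.63. Mrpl44, which has a fold like that of RNase III and NRF1 letters in the promoter shown, fell in ASZ from 14.7 to 6.66 FPKM (-1.14 ± 0.30) and stood at 19.7 and 13.1 in RasV12 (-0.58 ± 0.33, adjusted p = 0.14 by the authors' test). Mrpl41 was the least abundant member with CBD in both lines and fell in both, from 6.81 to 2.78 FPKM in ASZ (-1.29 ± 0.41) and from 8.85 to 3.80 in RasV12 (-1.22 ± 0.51, adjusted p = 0.040 by the authors' test). Mrpl51 fell in ASZ from 47.5 to 31.9 FPKM and had 43.8 and 27.8 in RasV12 (adjusted p = 0.060 by the authors' test). Mrpl45, which lies by the exit tunnel and holds the ribosome at the inner membrane, rose in RasV12 from 35.7 to 64.6 FPKM and had 29.7 and 36.9 in ASZ (adjusted p = 0.24 by the authors' test). Mrpl38 and Mrpl42 rose in both lines, Mrpl38 from 58.3 to 94.9 FPKM in ASZ and from 74.8 to 133 in RasV12.

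Mrps36 was kept in the set by its symbol, although its protein is now known as a part of the alpha-ketoglutarate dehydrogenase complex. It rose from 39.1 to 77.1 FPKM in ASZ and from 56.7 to 106 in RasV12. The Mrps18 paralogues are 3 counterparts of bacterial S18, of which Mrps18b and Mrps18c sit in the small subunit and Mrps18a in the large. None was called in either line, and reads of near-identical stretches could have been split between them. Mrps18c was the most abundant, at 77.7 and 110 FPKM in ASZ and 102 and 141 in RasV12. Mrps18a had 52.2 and 66.0 FPKM in ASZ and 55.1 and 79.6 in RasV12. Mrps18b had 40.0 and 31.8 FPKM in ASZ and 33.4 and 36.1 in RasV12. Mrpl48 had the least certain values, with a standard error of 0.84 in ASZ and 1.03 in RasV12, against a median over members of 0.25 and 0.31. A further row, which the tables name for Mrps6 and Slc5a3 together, was outside the rule and cannot be assigned to either gene.

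The responses of the 2 lines ran closely together across the members. The log2 ratios of the 73 members correlated at r = 0.84 (rho = 0.81), and those of all 10399 genes in both tables also at r = 0.84 (rho = 0.83). The median difference between the lines, RasV12 minus ASZ, was 0.02 for the members and 0.41 for all genes. In a two-sided normal test of the difference on the implied standard errors, adjusted over all genes, Mrpl50 was the 1 member called of 73, against 9.23% of all genes in either direction and 8.65% with the higher ratio in RasV12. Its difference was 1.22 ± 0.42 (95% interval 0.40 to 2.04, adjusted p = 0.043 on errors from the authors' p-values). That call was lost under each of the 4 other scalings tried, where the difference was 0.79 to 1.15. Mrpl44 differed by 0.56 (95% interval -0.32 to 1.44, adjusted p = 0.52), Mrps2 by 0.64 (-0.18 to 1.46, adjusted p = 0.39) and Mrpl55 by -0.68 (-1.48 to 0.11, adjusted p = 0.33), all on errors from the authors' p-values. The intervals of these 3 reach zero and also take in differences as large as that of Mrpl50.

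**Figure D2:**
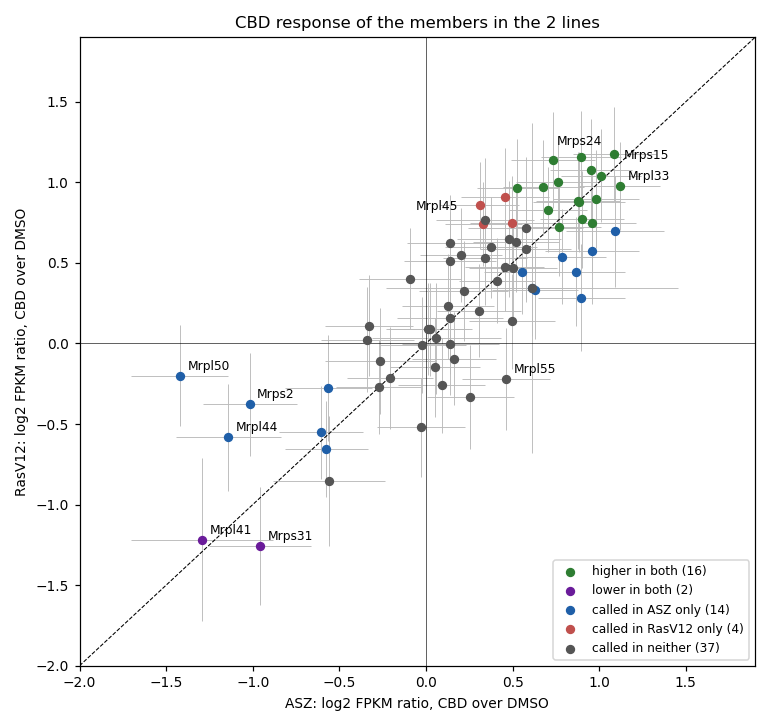
Log2 FPKM ratio of CBD over DMSO in ASZ (x axis) and in RasV12 (y axis) for the 73 members in both tables, with bars of 1 implied standard error. Colours give the calls, 16 higher in both, 2 lower in both, 14 called in ASZ only, 4 called in RasV12 only and 37 called in neither; Mrpl50, at -1.42 and -0.20, lies farthest above the dashed line of equal response.

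The members' rise depended on how the 2 groups of a line were put on 1 scale. The FPKM sum over the genes used was 1.43-fold higher with CBD than with DMSO in ASZ and 1.51-fold in RasV12. With equal FPKM sums, 2 members were called higher and 16 lower in ASZ, against 4.06% and 59.6% of all genes, and the 2 were Mrpl33 and Mrps15. In RasV12 the same scaling left 0 higher and 17 lower, against 2.27% and 42.6%. The members' median log2 ratio then turned to -0.14 in ASZ and -0.15 in RasV12, still above the -0.96 and -0.60 of all genes. With equal fragment mass, the FPKM times transcript length, ASZ had 20 higher and 8 lower calls (background 11.4% and 45.7%) and RasV12 had 3 and 8 (6.84% and 36.1%). With the median ratio of all genes set to 0, a shift of 0.44 in ASZ, 47 members were called higher and 2 lower there (28% and 30.8%), and 21 and 2 in RasV12 (19.1% and 24.3%). No higher call held under all 4 scalings in either line. The lower calls of Mrpl44 and Mrpl50 in ASZ, and of Mrpl41 and Mrps31 in RasV12, held under all 4.

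**Figure D3:**
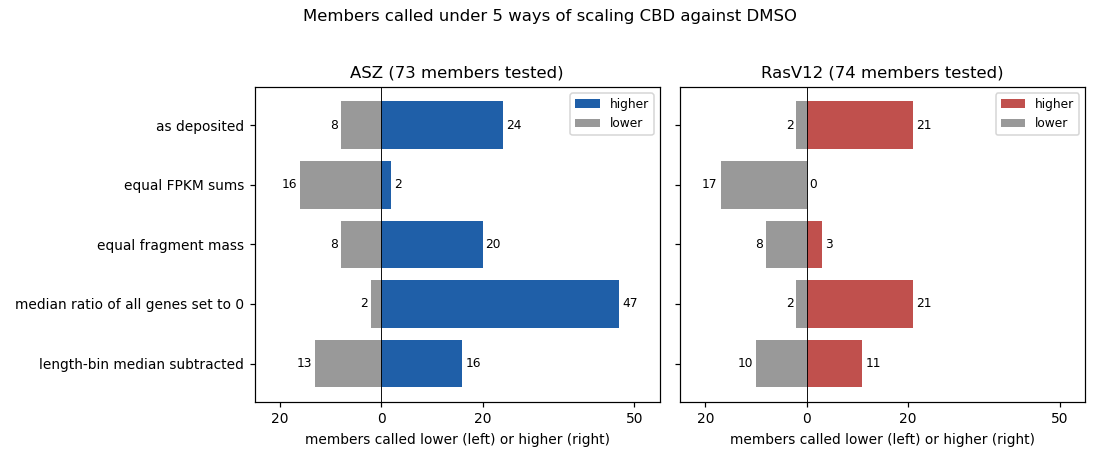
Number of members called lower (grey bars, left of zero) and higher (coloured bars, right of zero) with CBD in each line, for the values as deposited and 4 other scalings. In ASZ the higher calls run from 2 to 47 and in RasV12 from 0 to 21.

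Transcript length moved with the response. The members are short, with a median transcript of 1226 nt in ASZ and 1253 nt in RasV12 (GENCODE lengths), against 2999.5 and 2990.5 nt for all genes used. When the genes were put in 10 equal bins of length, the median log2 ratio of all genes ran from 0.69 in the shortest bin to -1.62 in the longest in ASZ, and from 0.58 to -0.69 in RasV12. In each line 47 members fell in the shortest 2 bins. There 40.4% of members and 35.9% of all genes were called higher in ASZ, with median ratios of 0.48 and 0.49, and 8.51% and 10.2% were called lower. In RasV12 the shares called higher were 27.7% and 28.1%, with medians of 0.47 and 0.50, and those called lower 4.26% and 6.7%. As deposited, the shares and medians of the short members thus lay near those of other short genes. In the other 8 bins 19.2% of members against 8.61% of genes were called higher in ASZ, and 29.6% against 16.4% in RasV12. Lower calls there took 15.4% of members against 50.5% of genes in ASZ, and 0% against 29% in RasV12. By the GENCODE length used, which need not be that of the transcript expressed, Mrps5, Mrps26, Mrps14 and Mrpl32 belonged to these longer members. These 4 genes kept their higher calls in both lines after the median of the length bin was subtracted. That subtraction left 16 higher and 13 lower calls in ASZ (background 22.9% and 24.6%) and 11 and 10 in RasV12 (17.3% and 20.4%). Of these calls the 47 short members had 1 higher and 11 lower in ASZ, against 232 and 366 of 2108 short genes. In RasV12 they had 1 and 10, against 124 and 327 of 2178. The longer members had 15 and 2 in ASZ, against 2171 and 2215 of 8432 genes. For RasV12 the longer members had 10 and 0, against 1757 and 1893 of 8712. The part of length in the response was not tested.

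**Figure D4:**
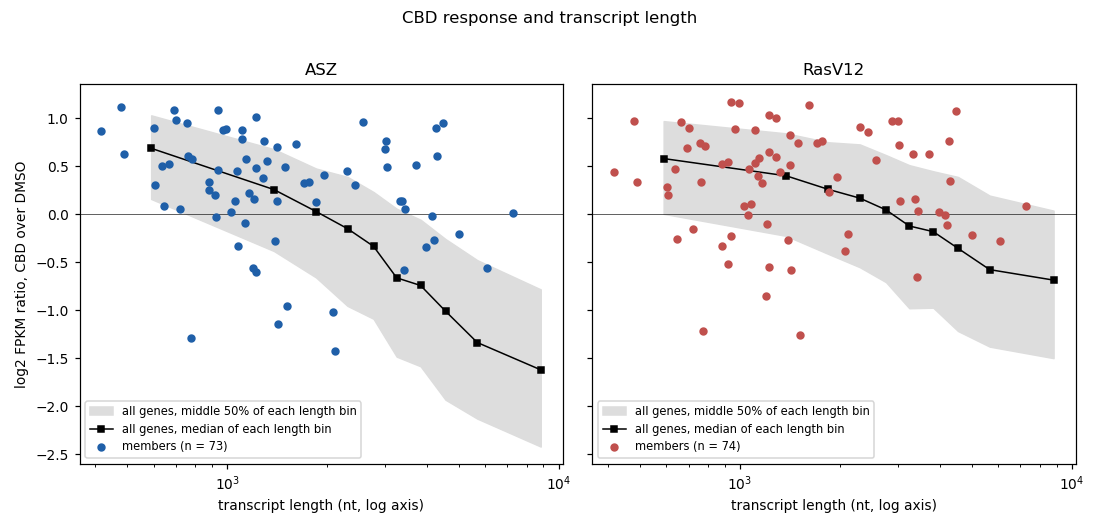
Log2 FPKM ratio of CBD over DMSO against transcript length (log axis) for the members (points) in ASZ and RasV12, with the median of all genes in each of 10 length bins (black squares) and the middle 50% of genes (grey). The black line runs from 0.69 to -1.62 in ASZ and from 0.58 to -0.69 in RasV12, and most short members lie around it.

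Of the genes for mitoribosomal proteins with other symbols, 4 of 6 were called higher in ASZ and 2 of 6 in RasV12, and none lower. Of all genes 14% and 18.7% were called higher. The list's median log2 ratios, 0.62 in ASZ and 0.71 in RasV12, were above the 0.38 and 0.45 of the members. With equal FPKM sums none of the 6 was called in either line. Dap3, a GTP-binding protein of the small subunit, rose from 9.83 to 15.4 FPKM in ASZ and from 11.6 to 21.2 in RasV12. Aurkaip1, also of the small subunit, rose from 38.7 to 70.8 and from 55.6 to 102 FPKM. Ptcd3, a small subunit protein with RNA-binding repeats, was called in neither, at 36.7 and 38.2 FPKM in ASZ and 29.7 and 41.4 in RasV12. The nuclear subunits of oxidative phosphorylation assemble with the chains the mitoribosome makes. As deposited, 57 of 72 were called higher in ASZ and 40 of 72 in RasV12, or 79.2% and 55.6%, with none lower. With equal FPKM sums 14 were called higher in ASZ and 0 in RasV12, and 0 and 5 lower. After the median of the length bin was subtracted, 11 and 6 were called higher, and 1 and 3 lower. Cytosolic ribosomal protein genes were called higher in 77 of 79 and 77 of 80 as deposited. Higher calls of these genes numbered 70 and 20 with equal FPKM sums, and 55 and 27 after the length-bin subtraction. Their median change on the log2(FPKM + 1) scale was 1.23 in ASZ and 1.22 in RasV12, and that of the oxidative phosphorylation subunits 0.79 and 0.70, so both sets had higher medians than the members. Both sets are also short, with median transcripts of 830 and 787 nt in the ASZ table.

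Of the assembly factors of the mitoribosome, 1 of 25 was called higher and 8 lower in ASZ, or 4% and 32% against 14% and 42.4% of all genes. In RasV12 1 and 3 of 26 were called, or 3.85% and 11.5% against 18.7% and 24.4%. Lower calls were thus no more frequent than among all genes, and the list's median log2 ratio, -0.46 in ASZ and -0.09 in RasV12, lay near the -0.44 and -0.01 of all genes. Single factors still had large ratios. Fastkd2, an RNA-binding protein needed for the large subunit, fell from 7.44 to 1.12 FPKM in ASZ (log2 ratio -2.73 ± 0.35) and from 7.97 to 1.47 in RasV12 (-2.44, standard error at most 0.60). Gtpbp10, a GTPase of large subunit assembly, fell from 17.8 to 4.09 FPKM and from 44.3 to 16.4. Mterf4, which guides an RNA methyltransferase to the large subunit, fell from 2.88 to 1.04 FPKM and from 4.16 to 1.75. Mpv17l2 was the 1 assembly factor called higher, from 49.7 to 78.7 FPKM in ASZ and from 50.5 to 102 in RasV12. The calls of Fastkd2 and Gtpbp10 held under all 4 other scalings in both lines, and that of Mpv17l2 under 1 of 4 in each.

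Of the translation factors, 1 of 15 was called higher and 3 lower in ASZ, or 6.67% and 20% against 14% and 42.4% of all genes. In RasV12 2 and 4 of 16 were called, or 12.5% and 25% against 18.7% and 24.4%. Their median log2 ratio was 0.01 in ASZ and 0.16 in RasV12, above that of all genes. Pdf, the deformylase of new mitochondrial chains, fell from 7.08 to 1.00 FPKM in ASZ and from 6.48 to 2.86 in RasV12. Taco1, an activator of the translation of a cytochrome oxidase subunit, fell from 19.7 to 5.12 and from 21.9 to 4.65 FPKM. Both held under all 4 scalings in each line. Tufm, the elongation factor that brings aminoacyl-tRNA, had 61.6 and 82.6 FPKM in ASZ (adjusted p = 0.099 by the authors' test) and rose from 71.5 to 123 in RasV12. Lrpprc, which stabilises mitochondrial messages, had 33.3 and 31.6 FPKM in ASZ (adjusted p = 0.80 by the authors' test) and rose from 19.8 to 31.4 in RasV12. The RasV12 call of Tufm held under 1 of the 4 scalings and that of Lrpprc under 2. Of the mitochondrial aminoacyl-tRNA synthetases 0 of 20 were called higher and 8 lower in ASZ, and 1 and 6 in RasV12. The lower calls, 40% and 30%, stood near the 42.4% and 24.4% of all genes. Pars2, for proline, fell from 3.08 to 0.256 FPKM in ASZ and from 3.39 to 0.870 in RasV12, and Mars2, for methionine, from 5.69 to 0.807 and from 4.90 to 1.00.

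The genes that transcribe and maintain the mitochondrial genome, the source of the ribosome's RNAs, had the lowest medians of these lists in both lines. In ASZ 7 of 9 were called lower and in RasV12 6 of 10, with none higher in either, so that lower calls took 77.8% and 60% of the list against 42.4% and 24.4% of all genes. Tfam, which packs the genome and starts its transcription, fell from 5.39 to 1.14 FPKM in ASZ (-2.24 ± 0.34) and from 6.38 to 2.31 in RasV12 (-1.46 ± 0.42). Tfb2m, the factor that opens the promoter, fell from 11.0 to 1.00 FPKM and from 11.3 to 1.23. Twnk, the helicase of mitochondrial DNA replication, fell from 8.08 to 0.880 and from 7.55 to 1.98. Tefm, the elongation factor, fell from 5.46 to 1.35 and from 7.08 to 2.43. The calls of these 4 genes held under all 4 scalings in both lines, and the median transcript of the list was 3488 nt in the ASZ table, longer than that of the members.

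Among the nuclear regulators of mitochondrial genes, 7 of 8 were called lower in ASZ and 1 of 9 in RasV12, or 87.5% and 11.1% against 42.4% and 24.4% of all genes. The median transcript of the list was 4570 nt in ASZ, longer than that of all genes used. After the median of the length bin was subtracted, 3 of 8 were called lower in ASZ, against 24.6% of all genes. The list's median log2 ratio in ASZ then went from -1.25 to -0.34. In ASZ the calls of Nrf1, Gabpa and Yy1 were lost under 2 of the 4 other scalings and that of Gabpb1 under 1. Ppargc1a, a coactivator of mitochondrial biogenesis, fell in both lines, from 5.48 to 1.02 FPKM and from 6.23 to 1.62. Its relative Pprc1 fell in ASZ, from 18.8 to 3.36 FPKM, and had 11.6 and 9.10 in RasV12 (adjusted p = 0.33 by the authors' test). The difference between the lines for Pprc1 was 2.13 (adjusted p = 5.2e-05 on errors from the authors' p-values). Its standard error was at most 0.42, since the p-value of Pprc1 in ASZ was given as 0. Myc, a factor that drives many ribosome genes, fell in ASZ from 36.5 to 13.7 FPKM and had 23.1 and 29.4 in RasV12 (adjusted p = 0.32 by the authors' test), a difference of 1.76 ± 0.42 (adjusted p = 0.0015). These were the 2 genes of 8 called different between the lines. Over all genes 9.23% were called different, 8.65% with the higher ratio in RasV12, and the median difference was 0.41 in that direction.

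**Figure D5:**
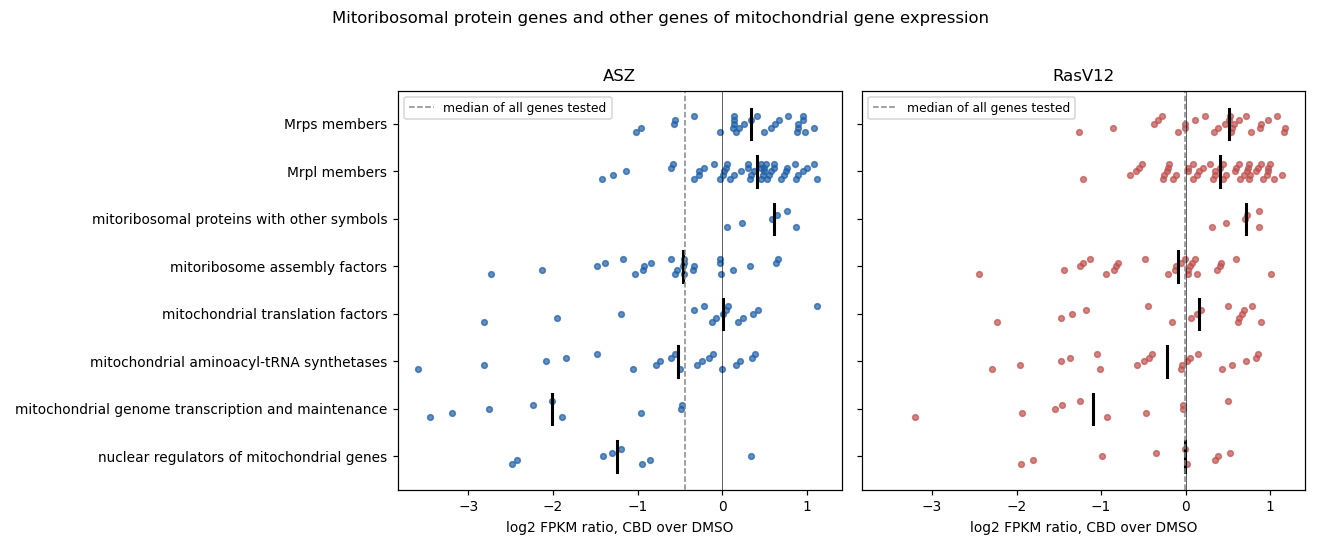
Log2 FPKM ratio of CBD over DMSO in each line for the Mrps and Mrpl members and 6 lists of related genes, 1 point per gene, with the median of each list as a black bar and the median of all genes tested as a dashed line. The Mrps and Mrpl medians lie right of zero, at 0.34 and 0.42 in ASZ and 0.51 and 0.40 in RasV12, and that of the genome transcription and maintenance genes at -2.02 and -1.09.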

How the data were processed

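RNA was taken from adherent cells and made into libraries from total RNA with an Illumina TruSeq kit, per the labels' protocols. Reads were handled by the authors with TopHat and Cufflinks on mm9, per the submitters' processing notes; versions are not given in the sources used here. For each line the authors deposited 1 table with an FPKM per group, over its 2 libraries, and a p-value for CBD against DMSO, per the file headers. Only these columns were used. The scale of the 2 groups of a line was set by the authors, and the calls depend on it.

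From these values, older symbols were replaced through RefSeq synonyms, rows without a name or named as dates were left out, and a symbol on several rows was used only where all other rows were under 10% of the highest. Genes entered the analysis if the authors had tested them and DMSO or CBD reached 1 FPKM. The deposited p-values were adjusted by the Benjamini-Hochberg method over those genes, and genes under 0.05 were called. A standard error was implied as the size of the log2 ratio over the normal quantile of p, an upper bound at the lowest p-value of the RasV12 table (5e-05). In ASZ 554 genes, none of them a member, had a p-value of 0. It was set to the lowest above 0, so their errors are upper bounds too. Medians of changes used a pseudocount of 1. The difference between lines was a two-sided normal test over 10399 genes; the 2 tables may come from different program versions. The steps were run on data simulated with normal errors of the implied size. These lacked the lowest p-value of RasV12 and the p-values of 0 in ASZ, so the run did not test those limits. Other scalings, filters and adjustments were tried. Transcript lengths came from GENCODE M21, by symbol (98.5% and 98.4% of genes). The longest transcript was taken, with those carrying a RefSeq accession preferred, and it need not be the one expressed. Python 3.11.15, numpy 2.4.6, pandas 2.3.3, scipy 1.17.1 and matplotlib 3.10.9 were used.

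The members and the lists were chosen with earlier results of these data known. Any member could be named; FPKM in all 4 groups were given for the 6 highest and 6 lowest changes in each line, every member called lower or different between lines, the 5 highest and 5 lowest in ASZ with DMSO, and the Mrps18 paralogues, and from each list some of the up to 4 called genes of largest change in a line were named, plus Dap3, Tufm, Lrpprc and Tfam. Further members were named as examples of their class, and Ptcd3 was chosen after its values were seen.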

Additional observations from a re-analysis of the deposited data

Results flagged for a closer look

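The CBD response of Mrpl50 differed between the lines, with a log2 ratio that was 1.22 higher in RasV12 than in ASZ in the test of the difference itself. The gene fell in ASZ, from 17.0 to 6.35 FPKM, and stood at 16.9 and 14.7 FPKM in RasV12. Over all genes the median difference between the lines was 0.41 in the same direction, and with the median ratio of all genes set to 0 in each line the difference of Mrpl50 was 0.79 (adjusted p = 0.41 on errors from the authors' p-values).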

How the results depend on the processing

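No paired analysis was possible because the columns carry 1 value per group, so the fits with a replicate block and without each replicate were not run. Calls of members kept their counts within 1.5 times under no FPKM minimum, under a minimum of 5 FPKM and with repeated symbols left out, and the medians kept their sign with pseudocounts of 0.1 and 0.01. Higher calls in ASZ numbered 2 with equal FPKM sums, 47 with the median ratio at 0 and 1 with Bonferroni adjustment; lower calls numbered 16, 2 and 1, 13 after subtraction of the length-bin median and 5 at an adjusted p under 0.01. Higher calls in RasV12 numbered 0 with equal FPKM sums, 3 with equal fragment mass, 11 after the length-bin subtraction, 0 with Bonferroni and 12 under 0.01, and lower calls 17, 8, 10, 0 and 1. The Bonferroni counts in RasV12 were fixed in advance. Over 11070 genes the lowest p-value of the authors' test there, 5e-05, cannot pass that adjustment. The 1 member called different between lines became 0 under all 4 scalings, Bonferroni and 0.01. The median log2 ratio turned to -0.14 in ASZ and -0.15 in RasV12 with equal FPKM sums. After the length-bin subtraction 25 members changed sign in ASZ and 19 in RasV12. Of these, 11 in ASZ and 0 in RasV12 were called before or after it: Mrpl14 (-0.60), Mrpl2 (-0.66), Mrpl20 (-0.078), Mrpl22 (-0.64), Mrpl42 (-0.16) and Mrps21 (-0.061) became negative, and Mrpl15 (0.74), Mrpl19 (1.13), Mrpl51 (0.087), Mrps25 (0.77) and Mrps35 (0.72) positive. The cause was not tested beyond the construction of each setting. Depth per library is only estimated. Precision differed among low members. Mrpl41 had a standard error of 0.41 in ASZ and 0.51 in RasV12, and Mrpl1 0.37 and 0.34. Mrpl17 had 0.24 and 0.28, near the members' medians of 0.25 and 0.31.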
